A study of Mus musculus with 10 samples.

Results

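Peaks of the glucocorticoid receptor (GR), of lysine-specific demethylase 1 (LSD1) and of histone H3 mono- or dimethylated at lysine 9 (H3K9me1, H3K9me2) were examined at 9 genes for myogenic transcription factors in mouse skeletal muscle. The genes were Myod1, Myog, Myf5, Myf6, Mef2a, Mef2c, Mef2d, Six4 and Pax7, and they are 9 of 26180 curated RefSeq genes of GRCm38 (mm10). They were selected as a named family by no threshold on a measured value, but with earlier results of these data known, which limits every comparison with all genes below. A peak was assigned to a gene when its midpoint lay in the gene body or within 30 kb of a transcription start site (TSS). It was called a promoter peak when the midpoint fell between 1000 bp before and 100 bp after a TSS. The windows of Myf5 and Myf6, 2 neighbouring genes of chromosome 10, overlap so far that both genes were assigned the same peaks in every list, so the 9 genes make 8 distinct loci.

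Nuclear extracts of skeletal muscle from C57BL/6J mice had been subjected to chromatin immunoprecipitation and sequencing (ChIP-seq). The animals were 10 weeks old by the labels, an age that the study's text states differently, and were either fed or starved for 24 h, a challenge that raises endogenous glucocorticoids. Each of the 8 groups (GR, LSD1, H3K9me1 and H3K9me2, fed or starved) was 1 library with 1 list of peaks called over an input library of the same condition. No allele or transgene is named for any of these groups, and whole muscle holds satellite cells, vessels and other cells besides myofibers. With 1 library per group there was no replicate check of any fed and starved difference, no test was made, and the values below describe these libraries. The lists hold no read depth and no expression level, so the tissue label could not be checked against RNA.

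Myogenic factors work in layers. Pax7 marks satellite cells, the stem cells of adult muscle, and Six4 is a homeodomain protein that acts upstream of the myogenic regulatory factors. Those factors, MyoD, myogenin, Myf5 and MRF4 (encoded by Myf6), are basic helix-loop-helix proteins that pair with E proteins and bind E-boxes, and MEF2 proteins are their MADS-box partners in differentiated fibers. GR is a ligand-activated receptor that binds glucocorticoid response elements (GREs) or joins other factors on DNA. LSD1 removes methyl groups from histone H3, and the H3K9me1 and H3K9me2 marks are among its known substrates.

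The lists held between 6624 peaks (H3K9me2 starved) and 171402 peaks (H3K9me2 fed), and the starved list was the longer one for GR (14108 fed, 37783 starved), LSD1 (16616 and 66332) and H3K9me1 (14178 and 38023). For LSD1 starved the study's text describes a far smaller peak set than the deposited list holds, and every LSD1 starved count, site and share below rests on the deposited list. The largest q-value in a list was between 0.0925 and 0.0998. Library codes in the labels put both GR libraries under one code and both LSD1 libraries under the other, so antibody and code cannot be told apart between GR and LSD1. Each histone mark had its fed library under the first code and its starved library under the second, so condition and code cannot be told apart for H3K9me1 and H3K9me2. Both input libraries carry the first code. The LSD1 lists and the starved lists of the marks were thus called over an input of the other code.

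The peak sequences on which the description turns are shown here on the plus strand of GRCm38, with capitals for the letters of a motif. The first 3 are GR fed peaks that overlapped LSD1 peaks of both conditions (or, for Myog, the LSD1 fed peak that spans such a GR peak at the promoter, with the MEF3 core, a sequence bound by Six4, in capitals). The others were added after their values were seen. They are the GR peaks of highest fold enrichment and an intronic Mef2c peak with 2 copies of a MEF2 core, in capitals.
Myod1, 5.17 kb upstream (chr7:46371154-46371446): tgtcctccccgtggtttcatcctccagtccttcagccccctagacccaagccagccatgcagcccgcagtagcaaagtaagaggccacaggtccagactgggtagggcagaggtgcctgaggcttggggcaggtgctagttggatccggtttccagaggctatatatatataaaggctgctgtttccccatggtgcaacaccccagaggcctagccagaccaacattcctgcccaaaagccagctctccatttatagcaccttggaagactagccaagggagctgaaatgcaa
Myog promoter (chr1:134289705-134289974): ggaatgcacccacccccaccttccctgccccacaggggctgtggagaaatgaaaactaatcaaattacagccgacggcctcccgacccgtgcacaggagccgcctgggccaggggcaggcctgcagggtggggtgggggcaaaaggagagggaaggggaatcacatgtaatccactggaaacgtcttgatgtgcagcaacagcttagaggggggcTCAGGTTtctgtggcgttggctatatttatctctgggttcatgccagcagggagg
Mef2d, 3.82 kb upstream (chr3:88138465-88138637): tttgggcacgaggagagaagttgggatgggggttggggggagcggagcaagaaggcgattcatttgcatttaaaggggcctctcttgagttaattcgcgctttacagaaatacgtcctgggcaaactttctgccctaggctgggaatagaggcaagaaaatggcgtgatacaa
Myf5 and Myf6, 5.18 kb upstream of Myf6 (chr10:107499784-107500020): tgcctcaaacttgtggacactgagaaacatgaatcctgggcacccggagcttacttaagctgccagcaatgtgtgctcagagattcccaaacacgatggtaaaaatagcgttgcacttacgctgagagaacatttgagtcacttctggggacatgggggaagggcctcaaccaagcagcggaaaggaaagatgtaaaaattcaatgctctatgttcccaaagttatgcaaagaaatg
Mef2a, 29.8 kb upstream (chr7:67402533-67402754): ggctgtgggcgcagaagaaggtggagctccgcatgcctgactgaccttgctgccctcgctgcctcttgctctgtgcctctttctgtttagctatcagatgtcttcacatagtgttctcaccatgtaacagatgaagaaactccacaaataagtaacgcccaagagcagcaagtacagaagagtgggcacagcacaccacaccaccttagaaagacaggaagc
Mef2c, 30.4 kb downstream (chr13:83603893-83604039): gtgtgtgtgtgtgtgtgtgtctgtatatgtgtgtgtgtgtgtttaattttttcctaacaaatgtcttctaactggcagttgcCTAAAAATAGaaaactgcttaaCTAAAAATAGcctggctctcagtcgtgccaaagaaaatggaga
The Mef2a and the Myf5 and Myf6 sequences hold none of the motifs searched, the Mef2c sequence holds both MEF2 cores past its midpoint, and the Myog sequence holds the MEF3 core between the GR fed peak and the TSS.

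All 9 genes had at least 1 GR peak in fed and in starved muscle, and 8 of 9 had peaks of both antibodies in both conditions. Of all RefSeq genes, 43.1% had a GR fed peak and 66.5% a GR starved peak by the same assignment. LSD1 fed peaks were assigned to all 9 genes against 51.1% of all genes. LSD1 starved peaks were assigned to 8 of 9 genes, all but Pax7, against 83.7% of all genes. A peak of each of the 4 GR and LSD1 lists was found at Myod1, Myog, Myf5, Myf6, Mef2a, Mef2c, Mef2d and Six4, which is 8 of 9 genes against 34.4% of all genes. For LSD1 starved the members' share was thus close to that of all genes, while for GR fed, LSD1 fed and all 4 lists together it was higher. With each starved list cut by fold to the length of the fed one, GR starved peaks were assigned to 7 genes (all genes 42.4%) and LSD1 starved peaks to 8 genes (44.8%). Windows were 60.0 kb long for Myod1, Myog, Myf5, Myf6 and Mef2d and 60.2 kb for Six4, near the 60.0 kb median of all genes, but 172 kb for Mef2a, 193 kb for Mef2c and 125 kb for Pax7.

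**Figure D1:**
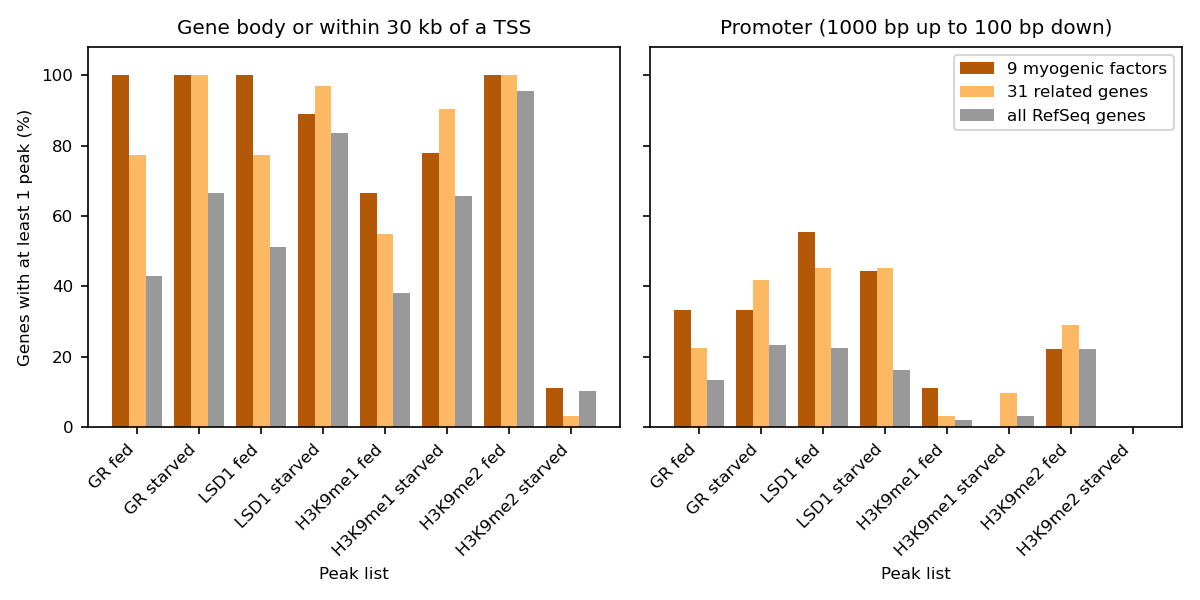
Share of genes (%, vertical axis) with at least 1 peak in the window (left) or in the promoter (right) for each of the 8 lists (horizontal axis), for the 9 myogenic factors, 31 related genes and all RefSeq genes. The 9 factors reach 100% for GR fed, GR starved, LSD1 fed and H3K9me2 fed, where all RefSeq genes stand at 43.1%, 66.5%, 51.1% and 95.5%.

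Promoter peaks were fewer. GR fed peaks lay in the promoters of 3 genes (Myod1, Myog and Mef2a), where 13.4% of all genes had one, and GR starved peaks in those of 3 genes (Myog, Myf5 and Six4), against 23.3%. LSD1 fed peaks lay in 5 promoters (Myod1, Myog, Mef2a, Mef2d and Six4), against 22.4%. LSD1 starved peaks lay in 4 promoters (Myog, Mef2a, Mef2d and Six4), against 16.2%. Myog was the 1 gene of 9 with a promoter peak in each of the 4 lists, a property of 4.15% of all genes. At a q-value of 0.01 or less, peaks were assigned to 8 genes for GR fed (all genes 33.6%), 7 for GR starved (40.6%), 7 for LSD1 fed (32.4%) and 4 for LSD1 starved (24.0%). These 4 were Myog, Mef2c, Mef2d and Six4, so that LSD1 starved peaks at Myod1, Myf5, Myf6 and Mef2a were all of weaker support.

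**Figure D2:**
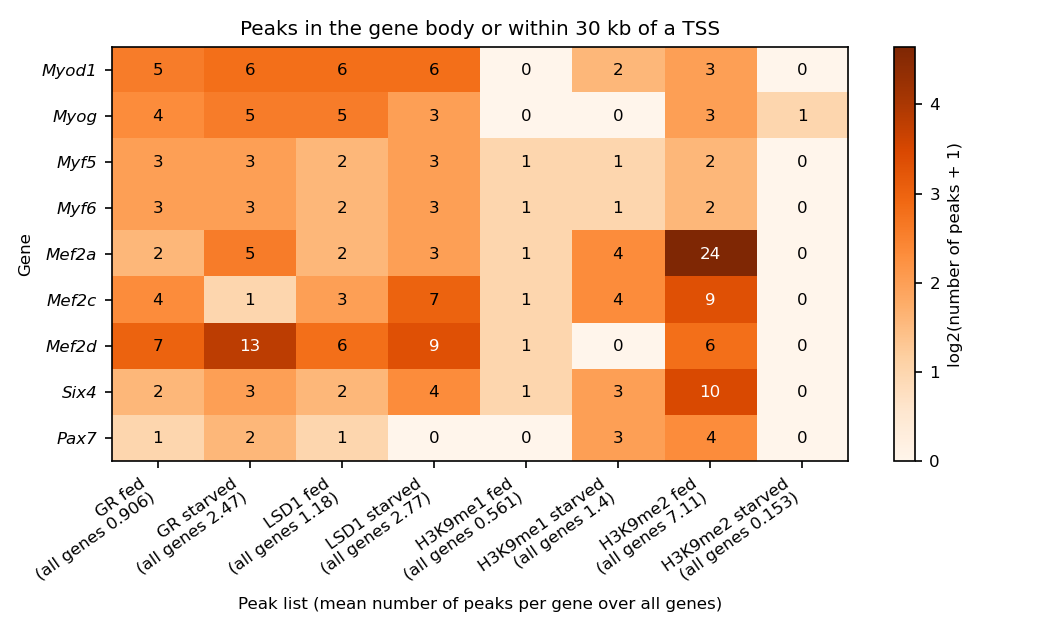
Number of peaks assigned to each of the 9 genes (rows) in each of the 8 lists (columns), with the color giving log2(number of peaks + 1) and the mean number over all genes under each list name. Mef2d has the most GR starved peaks (13) and Mef2a the most H3K9me2 fed peaks (24).

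Peak number ranged widely among the genes. Mef2d had 7 GR fed and 13 GR starved peaks, and 1.13% and 1.64% of all genes had as many or more. Myod1 had 5 GR fed peaks and, like Mef2d, 6 LSD1 fed peaks (as many or more at 3.49% and 3.2% of all genes). In its 125 kb window Pax7 had 1 fed and 2 starved GR peaks, and 1 fed and no starved LSD1 peak. For GR starved the lowest number was the 1 peak of Mef2c in 193 kb. Over the 9 genes the median number of peaks per 100 kb of window was 5.0 for GR fed, 5.0 for GR starved, 3.33 for LSD1 fed and 5.0 for LSD1 starved, compared with 0.0, 1.67, 0.51 and 3.31 over all genes.

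The fold enrichment of the members' peaks was like that of the lists they came from. The median was 3.26 over 28 distinct GR fed peaks (whole list 3.29), 2.8 over 38 GR starved peaks (2.7), 4.17 over 27 LSD1 fed peaks (4.03) and 3.49 over 35 LSD1 starved peaks (3.44). The range was 2.65 to 6.53 for GR fed, 2.53 to 6.17 for GR starved, 3.57 to 5.13 for LSD1 fed and 3.02 to 4.49 for LSD1 starved. A fold of 5 or more was reached by 2 of 28 GR fed peaks (7.14%, list 11.1%), 2 of 38 GR starved peaks (5.26%, list 1.82%), 1 of 27 LSD1 fed peaks (3.7%, list 6.7%) and no LSD1 starved peak (list 0.464%). Of the 28 GR fed peaks, 4 lay in a promoter of any gene, 2 in an exon, 10 in an intron and 12 between genes.

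**Figure D3:**
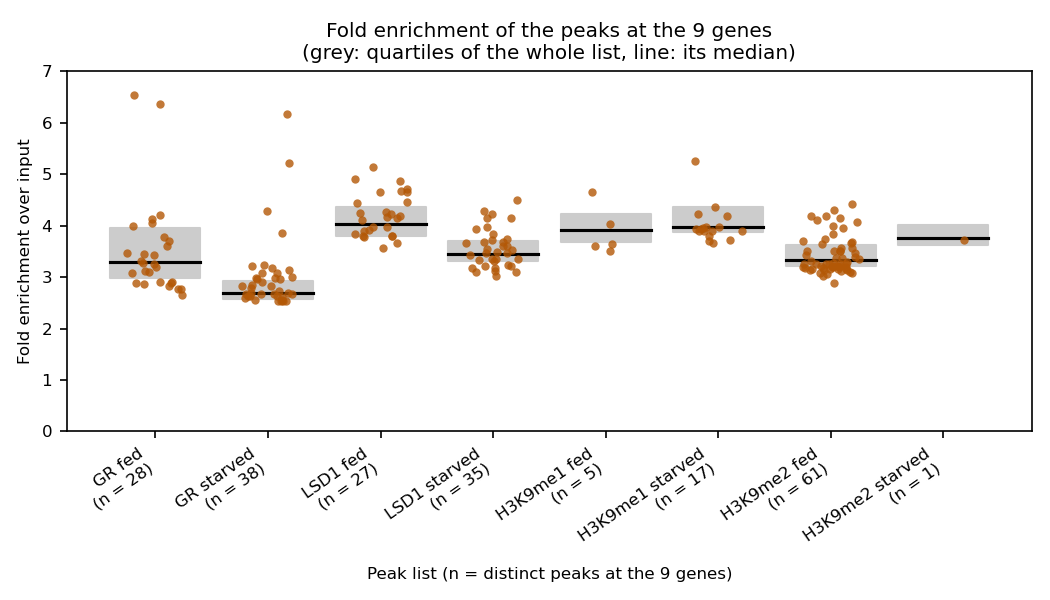
Fold enrichment over input (vertical axis) of each distinct peak at the 9 genes (points) in the 8 lists (horizontal axis, with the number of points), with the quartiles (grey) and the median (line) of the whole list. Most points lie within or near the grey range, and 2 GR sites stand above 5 in both conditions, at up to 6.53 fed and 6.17 starved.

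Myod1 (chr7:46376474-46379092, plus strand) encodes MyoD, the regulatory factor that can turn other cells toward muscle. GR peaks numbered 5 fed and 6 starved, LSD1 peaks 6 fed and 6 starved, and together they made 14 distinct sites. All 5 GR fed peaks overlapped an LSD1 fed peak, and at 3 sites a GR starved peak joined them. At the promoter the folds were 2.90 (GR fed), 2.96 (GR starved) and 3.98 (LSD1 fed), and the LSD1 fed peak held an E-box. The GR starved midpoint lay 0.107 kb downstream of the TSS, just past the promoter limit, which is why Myod1 is not among the genes with a GR starved promoter peak.

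The other triple sites of Myod1 were distal. A site centred 22.9 kb upstream had folds of 3.31 for GR fed, 2.83 for GR starved and 4.66 for LSD1 fed. Its GR fed and LSD1 fed peaks held E-boxes. A site 27.3 kb downstream, in an intron of the potassium channel gene Kcnc1, had folds of 4.00, 3.01 and 4.72 in the same order and held an E-box. At 5.17 kb upstream, in the promoter of the RefSeq gene Gm45923, whose TSS lies 5.07 kb from that of Myod1, a GR fed peak (fold 2.91, q-value 0.0213) met LSD1 fed (fold 4.17) and LSD1 starved (fold 3.02) peaks, and no GR starved peak. The highest LSD1 fed fold of the locus, 4.86, belonged to a peak 28.6 kb upstream that no GR peak overlapped. The highest LSD1 starved fold was 3.83, at a Kcnc1 exon 21.4 kb downstream. Of the LSD1 starved sites of Myod1, 1 of 6 was shared with any of the other 3 lists. In the whole LSD1 starved list, 5.85% of peaks overlapped an LSD1 fed peak and 9.14% a GR starved peak.

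Myog (chr1:134290004-134292548, plus strand) encodes myogenin, which drives the fusion of myoblasts and their final differentiation. GR peaks numbered 4 fed and 5 starved, and LSD1 peaks 5 fed and 3 starved. Its promoter, printed above, was occupied in all 4 lists, with GR folds of 2.88 fed and 2.97 starved and LSD1 folds of 4.90 fed and 4.22 starved. The LSD1 folds at this promoter were among the higher ones of their lists, within the top 8.17% of LSD1 fed and the top 5.65% of LSD1 starved, while the GR fed fold stood low, within the top 86.4% of its list. The TSS of the noncoding RNA gene Myoparr lies 0.243 kb from that of Myog on the other strand, so that the promoter peaks belong to both genes.

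The MEF3 core in the Myog promoter (TCAGGTT, chr1:134289920-134289926) lay inside the GR starved peak and both LSD1 peaks. It lay outside the GR fed peak, which ended at position 134289901. Upstream, a site 13.7 kb from the TSS was also present in all 4 lists, with GR folds of 3.26 fed and 2.98 starved and LSD1 folds of 3.67 fed and 3.17 starved. GR in both conditions and LSD1 fed met at 15.3 kb upstream (folds 4.06, 3.21 and 4.15) and, with an E-box, at 12.7 kb downstream in an intron of Ppfia4 (folds 3.71, 3.86 and 4.44). The highest LSD1 fed fold at any of the 9 genes, 5.13, belonged to a peak of 55 bp in a Ppfia4 exon 7.43 kb downstream, in no other GR or LSD1 list.

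Myf5 (chr10:107482908-107486134) and Myf6 (chr10:107492848-107494723) lie on the minus strand, with TSSs 8.59 kb apart. Myf5 is the first regulatory factor to appear in the embryo and also marks satellite cells, and Myf6 encodes MRF4, the most abundant of the 4 factors in adult fibers. The highest GR folds at any of the 9 genes were found here, at a site 5.18 kb upstream of Myf6 and 13.8 kb upstream of Myf5. The GR fed peak had a fold of 6.53 (q-value 4.3e-19, top 4.58% of its list) and the GR starved peak a fold of 6.17 (q-value 2.18e-19, top 0.826%). No LSD1 peak overlapped this site in either condition. The nearest LSD1 starved peak (fold 3.66), centred 5.77 kb upstream of Myf6, lay close by. It began at position 107500385, where the GR starved peak had ended at 107500140.

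The other GR sites of the pair were lower. GR fed and GR starved peaks met 8.53 kb upstream of Myf6 with folds of 3.09 and 3.07. A GR fed peak 11.7 kb upstream (fold 3.19) met an LSD1 fed peak of fold 3.77. A GR starved peak at the Myf5 promoter, 7.94 kb downstream of the Myf6 TSS, had a fold of 2.84 (q-value 0.0143), and no other GR or LSD1 peak met it. An LSD1 fed peak lay 7.22 kb downstream of the Myf6 TSS (fold 3.79). The highest LSD1 starved fold was 3.97, in a peak of 49 bp 3.39 kb upstream of Myf6. No site of this locus was held by 3 or 4 of the lists.

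**Figure D4:**
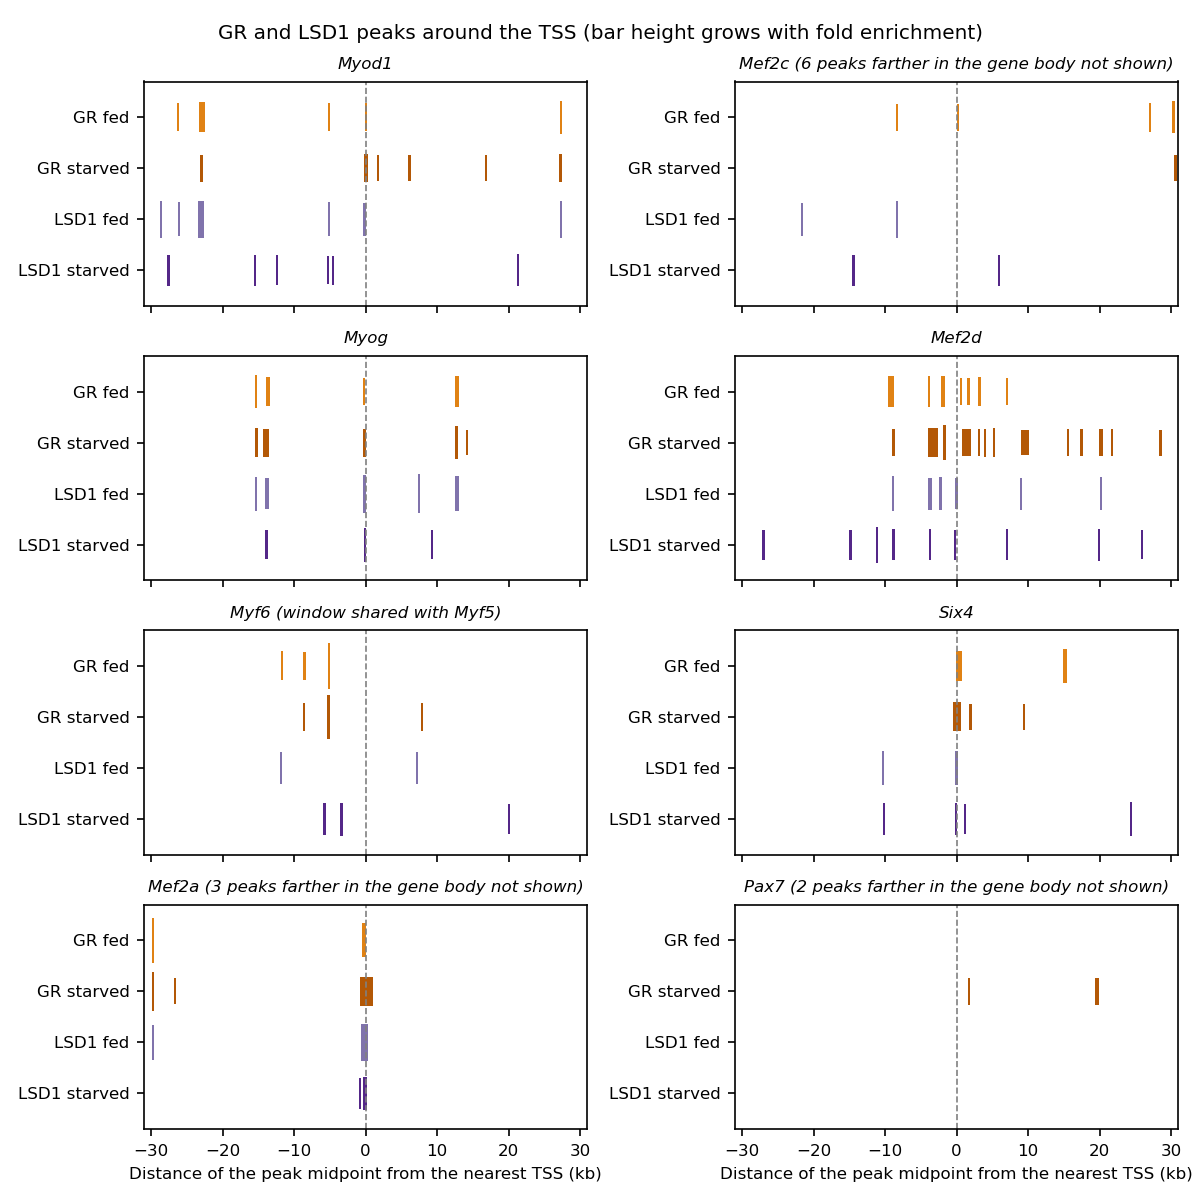
Positions of GR and LSD1 peaks by the distance of their midpoint from the nearest TSS of the gene (horizontal axis, kb, negative values upstream) for the 4 lists (rows), with bars of the peak's length (drawn at no less than 0.3 kb) whose height grows with fold enrichment. Columns of bars in line mark shared sites, as at the TSS of Myog, Mef2a and Six4. The tallest GR bars near Myf6 mark peaks that overlap no LSD1 peak, though an LSD1 starved bar stands close beside them.

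Mef2a (chr7:67231163-67372858, minus strand) encodes a MEF2 protein of adult fibers. Over its 172 kb window there were 2 GR peaks fed and 5 starved, and 2 LSD1 peaks fed and 3 starved. At the site 29.8 kb upstream the folds were 6.37 for GR fed (q-value 1.1e-23) and 5.22 for GR starved (q-value 1.23e-18), and 4.24 for LSD1 fed. No LSD1 starved peak was present there. At the promoter all 4 lists met, with GR folds of 4.12 fed and 3.23 starved and LSD1 folds of 4.67 fed and 3.94 starved. The GR starved peak at that promoter was 1821 bp long, the longest GR or LSD1 peak at any of the 9 genes, and its midpoint lay 0.114 kb downstream of the TSS. A second LSD1 starved peak (fold 3.46) followed 0.781 kb upstream. A MEF2 core lay at chr7:67372851-67372860, close to the TSS, within the promoter peaks of all 4 lists.

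Mef2c (chr13:83504034-83667079, plus strand) encodes the MEF2 protein known for heart and early muscle development and has 4 annotated TSSs. Its counts went opposite ways for the antibodies, with 4 GR fed and 1 GR starved peak but 3 LSD1 fed and 7 LSD1 starved peaks. The GR peaks met at 30.4 kb downstream of a TSS, in an intron, with folds of 3.77 fed and 2.68 starved, and the starved peak began within the second of the 2 MEF2 cores. A GR fed and an LSD1 fed peak met 8.35 kb upstream of a TSS, in an intron (folds 2.77 and 4.66). The other GR fed peaks had folds of 2.83, 0.154 kb downstream of a TSS, and 3.27, 27.1 kb downstream.

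The LSD1 starved peaks of Mef2c were short, between 49 and 206 bp. Their folds were between 3.09 and 4.28, none overlapped a peak of the 3 other lists, and the highest, 61.9 kb downstream, had a q-value of 0.00517. No GR or LSD1 peak midpoint lay in a Mef2c promoter. Of 13 distinct Mef2c sites, 11 were in 1 list. Over the 9 genes this held for 54 of 80 sites, and it was not counted over all genes. In the whole LSD1 starved list, 5.85% of peaks overlapped an LSD1 fed peak and 9.14% a GR starved peak.

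Mef2d (chr3:88142372-88172091, plus strand) encodes a broadly expressed MEF2 protein with a muscle isoform. Its 20 distinct sites were the most of any of the 9 genes. GR and LSD1 met in all 4 lists at 8.84 kb upstream (GR folds 3.60 fed and 2.69 starved, LSD1 folds 4.46 fed and 3.49 starved) and around 3.37 kb upstream (folds 3.44, 3.07, 3.80 and 3.60 in the same order). Another site 1.69 kb upstream had GR folds of 3.46 fed and 4.29 starved and an LSD1 fed fold of 3.90. The GR fed peak overlapped both of the others, but the LSD1 fed peak, centred 2.27 kb upstream, did not overlap the GR starved peak. The starved GR peak there (q-value 5.2e-09, top 3.12% of its list) held a MEF2 core and was the 1 GR starved peak of Mef2d above 4. At the promoter there were LSD1 fed (fold 3.57) and LSD1 starved (fold 3.36) peaks and no GR peak by midpoint. The highest LSD1 starved fold at any of the 9 genes, 4.49, belonged to a peak of 58 bp 11.2 kb upstream.

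Most GR starved peaks of Mef2d were in the gene body, where 10 lay from 1.34 to 28.6 kb downstream with folds between 2.55 and 3.13. The GR fed peaks of the body numbered 4, with folds between 2.65 and 3.12.

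The Six4 gene (chr12:73099609-73113425, minus strand) encodes a protein that binds MEF3 sequences such as that of the Myog promoter. At its own promoter the GR folds were 3.43 fed and 3.17 starved and the LSD1 folds 4.22 fed and 3.73 starved, with the GR fed midpoint 0.305 kb into the gene. The GR peaks and the LSD1 fed peak there held a MEF3 core (TCAGGTT, chr12:73113336-73113342), and the LSD1 starved peak began at 73113374 and did not reach it. The highest GR fed fold of the locus was 4.21 (q-value 2.66e-06), at 15.2 kb downstream, in no other GR or LSD1 list. The LSD1 peaks 10.4 kb upstream (fed, fold 3.98) and 10.1 kb upstream (starved, fold 3.69) lay at the promoter of Mnat1, a neighbour on the other strand, and did not overlap each other. The highest LSD1 starved fold, 4.15, was 24.5 kb downstream.

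Pax7 (chr4:139738081-139832968, minus strand) had its few peaks in introns. The GR fed peak had a fold of 2.88, 61.7 kb downstream of the TSS, and the GR starved peaks had folds of 2.68 (19.7 kb downstream) and 2.70 (1.76 kb downstream). The LSD1 fed peak had a fold of 4.27, 85.4 kb downstream. None of these 4 peaks overlapped another, and no peak of the GR or LSD1 lists lay in the Pax7 promoter. When windows were limited to 30 kb from a TSS, Pax7 lost its GR fed and its LSD1 fed peak.

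Over the 9 genes, 80 distinct GR or LSD1 sites were counted. Peaks were joined into a site by chained overlaps, so that not all peaks of a site need overlap each other. A single list held 54 of them, 2 lists held 12, 3 lists held 8 and all 4 lists held 6. The 6 were the promoters of Myog, Mef2a and Six4, the Myog site 13.7 kb upstream and the Mef2d sites 8.84 and 3.37 kb upstream. The largest groups were 25 sites in LSD1 starved alone and 18 in GR starved alone, against 7 in LSD1 fed alone and 4 in GR fed alone. This order is also that of list length, with 66332, 37783, 16616 and 14108 peaks. The part of list length in these counts was not tested. Sites were not counted over all genes or whole lists, so the counts have no comparison. GR fed, GR starved and LSD1 fed without LSD1 starved held 7 sites.

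Of 28 GR fed peaks, 17 (60.7%, exact 95% interval 40.6 to 78.5%) overlapped an LSD1 fed peak by at least 1 bp, compared with 48.3% of the whole list. Of 38 GR starved peaks, 6 (15.8%, 6.02 to 31.3%) overlapped an LSD1 starved peak, compared with 14.7% of the list. In both conditions the interval covered the share of the list. With both lists held to a q-value of 0.01 or less, the shares were lower at the 9 genes and in the lists, with 7 of 19 GR fed peaks (36.8%, list 32.1%) and 1 of 17 GR starved peaks (5.88%, list 6.43%). Intervals cover counting error over peaks only, and neighbouring peaks are not independent.

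Overlap between conditions was seen more often from the starved side than in the lists. Of 38 GR starved peaks, 18 (47.4%, 31.0 to 64.2%) overlapped a GR fed peak, against 24.5% of the list. Of 35 LSD1 starved peaks, 9 (25.7%, 12.5 to 43.3%) overlapped an LSD1 fed peak, against 5.85% of the list. From the fed side the shares were 67.9% of GR fed peaks (list 65.8%) and 29.6% of LSD1 fed peaks (list 23.1%). The members' starved peaks were longer than the list medians, 355 against 313 bp for GR and 153 against 103 bp for LSD1. Starved peaks were also fewer beside fed ones at the members than in the lists. GR had 28 fed and 38 starved peaks at the members (lists 14108 and 37783), and LSD1 had 27 and 35 (lists 16616 and 66332). The part of length and of these counts in the overlap was not tested.

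Overlapping fed and starved peaks were paired to set their folds side by side. Of 19 GR pairs, 15 (78.9%) had the higher fold in fed muscle, like 78.8% of all 9287 pairs of the lists. The pairs with the higher fold in starved muscle were the Myod1 and Myog promoters, the Myog site in Ppfia4 and the Mef2d site 1.69 kb upstream. All 8 LSD1 pairs had the higher fold in fed muscle, as had 87.4% of all LSD1 pairs. The fed and starved lists come from separate libraries of unknown depth, and the difference at the 9 genes followed that of the whole lists.

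**Figure D5:**
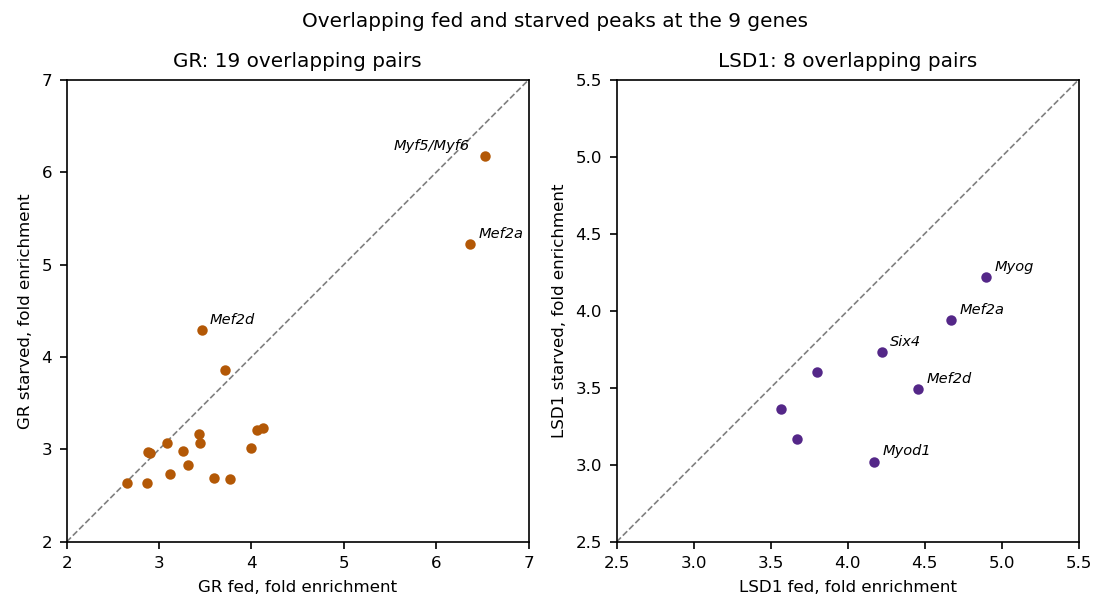
Fold enrichment over input in the fed list (horizontal axis) and the starved list (vertical axis) for overlapping peaks at the 9 genes, for GR (left) and LSD1 (right), with a dashed line of equal fold. All 8 LSD1 pairs and 15 of 19 GR pairs lie below the line, and the Mef2d pair (3.46 fed, 4.29 starved) lies farthest above it.

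Motifs were searched on both strands in the members' peaks and in every peak of the lists. A GRE (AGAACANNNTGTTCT, where N is any base) with at most 1 mismatch was found in none of the members' GR peaks (28 fed, 38 starved) and LSD1 peaks (27 fed, 35 starved). The whole lists held it in 2.17%, 0.712%, 0.392% and 0.0636% of peaks, so that less than 1 peak was to be found at these shares in each set. With at most 2 mismatches, 3 of 28 GR fed peaks held it (list 9.75%), and 1 of 38 GR starved peaks (4.33%). The GR fed peak of highest fold among them was that of Six4 at 15.2 kb downstream, with the letters AGGACATGCTATTCT, which differ from the GRE by A3G and G11A (positions counted from 1 at the left end). An NRF1 sequence (GCGCATGCGC) was in none of the members' peaks, and in 0.632% of GR fed and 0.814% of LSD1 fed peaks of the lists.

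Sequences bound by myogenic factors themselves were compared in the same way. The E-box CAGCTG was present in 6 of 28 GR fed peaks (21.4%, list 28.9%), 9 of 38 GR starved peaks (23.7%, list 26.5%), 7 of 27 LSD1 fed peaks (25.9%, list 21.2%) and 3 of 35 LSD1 starved peaks (8.57%, list 7.09%). A MEF2 core (CTA, 4 bases that are A or T, TAG) was in 2 of 28 GR fed peaks, at Mef2a and Mef2c. That is 7.14% (exact 95% interval 0.877 to 23.5%), against 2.61% of the list. It was in 2 of 38 GR starved peaks, at Mef2a and Mef2d (5.26%, 0.644 to 17.7%, list 1.27%). The genes with this core in a GR peak were all MEF2 genes, on 2 peaks in each condition, and the Mef2a core was the same in both. These genes also held many of the GR peaks searched. Mef2a, Mef2c and Mef2d had 2, 4 and 7 of the 28 fed peaks and 5, 1 and 13 of the 38 starved peaks. The MEF3 core TCAGGTT was in 1 of 28 fed and 4 of 38 starved GR peaks (lists 6.36% and 6.28%), and in 3 of 27 fed and 1 of 35 starved LSD1 peaks (3.92% and 2.02%). With these counts, the E-box, MEF2 and MEF3 shares of members and lists were not separated by the counting error. A match is a run of letters and no shown site, and longer peaks hold more of them.

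The median number of H3K9me1 peaks per 100 kb at these genes was 0.582 fed and 2.07 starved, against 0.0 and 1.67 over all genes. H3K9me2 peaks numbered 61 in the fed list and 1 in the starved list as deposited, a contrast that was mostly lost when both lists had the same length. H3K9me1 fed peaks were assigned to 6 genes (all genes 38.0%) and H3K9me1 starved peaks to 7 genes (65.6%), as 5 and 17 distinct peaks. H3K9me2 fed peaks were assigned to all 9 genes, as were those of 95.5% of all genes, as 61 distinct peaks. The 1 H3K9me2 starved peak was at Myog, 16.5 kb upstream (fold 3.73, q-value 0.0652), where 10.2% of all genes had such a peak. Starved and fed libraries of these marks carry different library codes, and the fed H3K9me2 list is the longest of all and the starved one the shortest. With the fed and the starved list of a mark cut by fold to the same length, H3K9me2 fed peaks were at 2 genes (all genes 22.2%) against 1 gene in the starved list. For H3K9me1 the order turned, from 6 genes fed and 7 starved to 6 genes fed (38.0%) and 4 starved (35.9%).

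The peaks of these marks were small, with a median length of 49 bp for H3K9me1 in both conditions and 90 bp for H3K9me2 fed. Mef2a had the most, with 24 H3K9me2 fed peaks in its 172 kb window (as many or more at 2.61% of all genes), followed by Six4 with 10 in 60.2 kb and Mef2c with 9. Myod1, Myog, Myf5 and Myf6 had 3, 3, 2 and 2, below the mean of 7.11 over all genes. Per 100 kb the median over the 9 genes was 5.0, against 8.33 over all genes. The highest H3K9me1 fold, 5.26, was in a starved peak of 49 bp in a Mef2a intron 55.9 kb downstream, and the highest H3K9me2 fold, 4.42, in a fed peak 15.0 kb upstream of Mef2d.

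At the regulatory factors the marks were represented by scattered peaks. The highest H3K9me1 starved fold of Myod1 was 4.36, 15.3 kb downstream, and its highest H3K9me2 fed fold was 3.46, 17.1 kb downstream, while H3K9me1 fed peaks were at neither Myod1 nor Myog. The highest H3K9me2 fed fold of Myog was 4.18, 23.8 kb upstream. For Myf5 and Myf6 the H3K9me1 peaks lay 17.9 kb upstream of Myf6 in the fed list (fold 4.65) and 1.46 kb upstream in the starved list (fold 3.90). The highest H3K9me2 fed fold of that locus was 3.36, 16.6 kb downstream of the Myf6 TSS.

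At the other genes the H3K9me1 starved peaks lay mainly within gene bodies. None of the 27 LSD1 fed peaks at the 9 genes overlapped an H3K9me1 starved peak (exact 95% upper limit 12.8%), compared with 2.97% of the whole LSD1 fed list. The highest H3K9me1 starved folds were 4.18 at Mef2c (70.5 kb downstream), 4.22 at Six4 (4.34 kb upstream) and 3.97 at Pax7 (46.3 kb downstream). In the H3K9me1 fed list the single peaks of Mef2c and Six4 had folds of 3.60 and 4.03, and Pax7 had none. The highest H3K9me2 fed folds were 4.19 at Mef2a (24.2 kb upstream), 4.31 at Mef2c (in an exon 90.1 kb downstream), 4.00 at Six4 (5.73 kb upstream) and 3.96 at Pax7 (8.08 kb downstream). Of the 61 H3K9me2 fed peaks, 10 were masked as repeats over at least 50% of their length, as were 3 of 5 H3K9me1 fed and 3 of 17 H3K9me1 starved peaks. The repeat shares of the whole lists are not given, so these counts have no comparison.

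Promoter peaks of the marks were rare. Mef2a had the single H3K9me1 fed promoter peak (fold 3.50, 0.468 kb upstream), where 1.94% of all genes had one. None of the 9 genes had an H3K9me1 starved (all genes 3.1%) or an H3K9me2 starved (0.21%) promoter peak. H3K9me2 fed promoter peaks were at Mef2c (fold 2.89) and Six4 (fold 3.25), 2 of 9 genes against 22.3% of all genes. The Mef2c peak had a q-value of 0.0517 and the Six4 peak of 0.0488.

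GR and H3K9me2 seldom met. None of 28 GR fed peaks overlapped an H3K9me2 fed peak (exact 95% upper limit 12.3%), compared with 16.5% of the whole list. Of 27 LSD1 fed peaks, 2 (7.41%, 0.91 to 24.3%) overlapped an H3K9me2 fed peak, compared with 16.8% of the list, and 2 overlapped an H3K9me1 fed peak, compared with 2.29%. At the printed Mef2d site an H3K9me1 fed peak of 49 bp (fold 3.65) lay within the LSD1 fed peak, 3.79 kb upstream.

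The 31 related genes, a list of partners, inhibitors, relatives, cofactors and targets of the factors, were read beside the 9. GR fed and LSD1 fed peaks were each assigned to 24 of 31 (77.4%), against 43.1% and 51.1% of all genes. GR starved peaks were assigned to 31 (all genes 66.5%) and LSD1 starved peaks to 30 (all genes 83.7%). Peaks of all 4 lists were at 21 (67.7%), against 34.4% of all genes. Some of these windows were long, such as 298 kb for Tcf12 and 257 kb for Tead1. Both E proteins, Tcf3 and Tcf12, the dimer partners of the myogenic factors, had GR and LSD1 peaks in both conditions, as had all 5 cofactors (Srf, Tead1, Tead4, Vgll2 and Smyd1). Of 6 inhibitors, 4 (Id1, Id2, Id3 and Mdfi) had GR fed peaks, and Twist1 and Msc had none. Promoter peaks in all 4 lists were found at Tcf3, Srf, Ckm and Des, 12.9% of the related genes against 4.15% of all genes. Ckm encodes muscle creatine kinase and Des the filament protein desmin. The related genes thus had GR and LSD1 peaks in large part too. GR fed peaks were absent from 7 of 31 and LSD1 fed peaks from a partly different 7.

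Among the related genes the highest fold, that of the cofactors, was at Tead4, whose GR fed peak 25.1 kb downstream reached 10.04 (q-value 9.89e-41), above any peak of the 9 genes. A GR starved peak 11.1 kb downstream of Des had a fold of 7.67. Hdac4, a class IIa deacetylase that represses MEF2, had a GR fed fold of 6.78, 80.7 kb downstream, and Eya4, a transcriptional coactivator, a GR starved fold of 6.25, 171 kb downstream. The highest folds at the inhibitors and the E proteins were those of LSD1, 4.71 (fed) at Id1 and 4.22 (starved) at Tcf12.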

How the data were processed

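ChIP-seq of mouse skeletal muscle was mapped by the authors to mm10, and broad peaks were called per library with MACS2 over the input library. Per the study's methods, reads were filtered with a blacklist made for a human build, and a stricter false discovery rate was stated than the q-values of the lists reach. The labels name bcl2fastq 2.20.0.422. Each of the 8 deposited lists gives, per peak, the fold enrichment over input (a ratio), a −log10 p-value and a −log10 q-value. A score deposited by the authors was not used. Read depth is not given in the lists, so precision per peak is unknown.

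Groups were taken from the labels. Peaks were assigned by midpoint to 45754 curated transcripts of 26180 RefSeq genes of GRCm38.p6, the build of the files by chromosome names and mm10. Overlap meant at least 1 bp. Intervals are exact binomial (Clopper-Pearson) at the 95% level. Motifs were counted on both strands in peaks of the assembled chromosomes. Python 3.11.15, numpy 2.4.6, pandas 2.3.3, scipy 1.17.1 and pysam 0.24.0 were used, and assignment and overlap were tested on simulated data. No test of a difference was run, since each group was 1 library. The members and the list of 31 related genes were chosen with earlier results of these data known. The peaks named were, by rule, the GR and LSD1 promoter peaks, the peak of highest fold per gene and list, sites shared by GR in both conditions and LSD1, and the highest-fold GR or LSD1 peak per role group of related genes; further peaks were named after their values were seen. Promoter sequences of RefSeq start sites are not shown.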

Additional observations from a re-analysis of the deposited data

Results flagged for a closer look

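Fed and starved muscle differed in opposite directions between marks or antibodies at several of the 9 genes, each with 1 library per group, and these differences were not tested. Distinct H3K9me1 peaks went from 5 fed to 17 starved, while H3K9me2 peaks went from 61 fed to 1 starved. At Myog, GR peaks went from 4 to 5 and LSD1 peaks from 5 to 3. At Mef2c, GR peaks went from 4 to 1 and LSD1 peaks from 3 to 7. At Pax7, GR peaks went from 1 to 2 and LSD1 peaks from 1 to 0. The GR, LSD1 and H3K9me1 starved lists are longer than the fed lists and the H3K9me2 starved list is shorter. With the lists of each pair cut by fold to equal length, none of these pairs moved in opposite directions. H3K9me1 peaks were then 5 fed and 4 starved and H3K9me2 peaks 2 and 1. GR and LSD1 peaks were 4 and 4, and 5 and 1, at Myog, 4 and 0, and 3 and 2, at Mef2c, and 1 and 0, and 1 and 0, at Pax7, fed before starved and GR before LSD1.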

How the results depend on the processing

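Of 80 alternatives for the number of genes with a peak, 55 kept it within the margin of 1.5 times and 25 moved it; for promoter peaks 6 of 20 kept it, for overlap shares 5 of 10 (GR fed), 2 of 5 (GR starved) and 2 of 4 (LSD1 fed). At a q-value of 0.01 or less, genes with a peak were 4 (LSD1 starved), 2 and 4 (H3K9me1 fed and starved) and 0 (H3K9me2 starved), promoters 1 (GR fed) and 1 (LSD1 starved), and the shares were 36.8% (GR fed by LSD1 fed), 5.88% (GR starved by LSD1 starved) and 6.67% (LSD1 fed by LSD1 starved). At 1e-05 or less, 5 genes had GR peaks in each condition and 0 had peaks of any other list, 1 promoter held a GR fed peak and 0 a GR starved, LSD1 fed or LSD1 starved peak, and the shares were 0% (GR by LSD1, both conditions) and 40.0% (GR fed by GR starved), while no LSD1 fed peak was left for a share. At a fold of 5 or more, 3 genes had GR peaks in each condition, from 2 distinct peaks, as Myf5 and Myf6 share 1. Both genes are also among the 5 at 1e-05 or less. At that fold, 1 gene had LSD1 fed and 1 H3K9me1 starved peaks and 0 the others. Promoters were then 0 in all 4 GR and LSD1 lists, and the shares were 0% but for 100% (GR fed by GR starved, 2 of 2 peaks). Shares over all genes are not given for either threshold, for the 10 kb window or for the wider promoters. Within 10 kb of a TSS, 3 genes had H3K9me1 fed and 0 H3K9me2 starved peaks, and by nearest TSS 0 had H3K9me2 starved peaks. With fed and starved lists cut to equal length by fold, 4 genes had H3K9me1 starved and 2 had H3K9me2 fed peaks. With promoters to 1000 bp downstream, GR promoter peaks were at 6 (fed) and 5 (starved) genes, and with any base in the promoter at 5 and 5. Counting Myf5 and Myf6 as 1 locus, an alternative chosen after seeing the data, gave 8 and 8 of 8 loci for GR fed and starved, and 8 and 7 for LSD1. A GRE with 2 mismatches was in 3 GR fed, 1 GR starved and 1 LSD1 fed peaks. No paired analysis was possible because each group had 1 library. Depth is unknown, so a missing peak is not shown to be missing binding.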
